A study of Homo sapiens with 5 samples.

Results

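The 9 loci described here belong to genes of the canonical Wnt pathway and to its known target genes, followed through lists of H3K27ac and KAT7 summits from HCT116 cells. A summit is the base of highest signal in a ChIP-seq peak, and summits were taken within 20 kb of each gene's hg19 span, with the spans given to the nearest 1 kb. This rule used position alone. It found 153 of the 209263 summits in the 5 lists.

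HCT116 is a human colorectal cancer cell line. Its cells had been transfected for 48 h with siRNA directed at the long noncoding RNA ENO1-IT1 or with control siRNA, and chromatin was immunoprecipitated for H3K27ac, histone H3 acetylated at lysine 27 and a mark of active promoters and enhancers, or for KAT7, the histone acetyltransferase also called HBO1. The groups were ENO1-IT1 siRNA H3K27ac, control siRNA H3K27ac, ENO1-IT1 siRNA KAT7, control siRNA KAT7 and an input DNA library made with no antibody, whose label names no siRNA. Each group was 1 library, so no spread between replicates could be had, nothing was tested, and every difference below describes these libraries alone. Groups follow the sample titles, since every list names its peaks with a code that starts with KO, and the lists hold no transcript levels against which the knockdown or the cell type could be checked. The depth of the libraries is unknown.

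In the absence of a Wnt signal, cytoplasmic β-catenin is bound by a destruction complex built on APC and AXIN proteins and is degraded. Wnt ligands at Frizzled and LRP receptors stop this degradation, and β-catenin then enters the nucleus and acts with TCF and LEF factors at target genes. The intestinal crypt and most colorectal cancers depend on this pathway. HCT116 cells are known for a stabilising mutation of β-catenin in the presence of intact APC, and for truncating mutation of RNF43.

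RefSeq promoter sequences, each from 250 bases before to 50 bases after a transcript start, were at hand for 3 of the 9 genes, CTNNB1, APC and RNF43. They are shown because they were at hand. The 5′ ends of these genes were acetylated to unlike degrees below, and a link to the sequences was not tested. The sequences are on GRCh38.p14, so their coordinates cannot be set beside the hg19 positions of the summits. Capitals mark the core TCF/LEF motif CTTTGA or its variant CTTTGT on either strand.
CTNNB1, chr3:41199255-41199554, plus strand: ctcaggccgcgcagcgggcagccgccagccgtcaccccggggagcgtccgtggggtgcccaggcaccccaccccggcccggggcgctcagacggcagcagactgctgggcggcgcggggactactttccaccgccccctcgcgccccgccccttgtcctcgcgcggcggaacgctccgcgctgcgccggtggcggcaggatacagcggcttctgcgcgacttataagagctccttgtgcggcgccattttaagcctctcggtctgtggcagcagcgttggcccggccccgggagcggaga
APC, first start, chr5:112707248-112707547, plus strand: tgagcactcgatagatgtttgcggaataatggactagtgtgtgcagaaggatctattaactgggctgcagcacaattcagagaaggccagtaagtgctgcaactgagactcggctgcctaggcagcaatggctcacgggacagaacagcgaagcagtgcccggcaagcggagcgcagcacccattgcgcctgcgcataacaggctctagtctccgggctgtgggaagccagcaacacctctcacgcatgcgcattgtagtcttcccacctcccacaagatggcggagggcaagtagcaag
APC, second start, chr5:112737635-112737934, plus strand: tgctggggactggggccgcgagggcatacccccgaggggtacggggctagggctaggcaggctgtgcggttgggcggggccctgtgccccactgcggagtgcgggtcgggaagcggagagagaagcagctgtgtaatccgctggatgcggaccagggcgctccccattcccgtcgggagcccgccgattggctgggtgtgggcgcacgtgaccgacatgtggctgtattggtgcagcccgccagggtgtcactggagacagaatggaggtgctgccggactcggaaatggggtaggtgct
RNF43, first start, chr17:58417485-58417784, minus strand: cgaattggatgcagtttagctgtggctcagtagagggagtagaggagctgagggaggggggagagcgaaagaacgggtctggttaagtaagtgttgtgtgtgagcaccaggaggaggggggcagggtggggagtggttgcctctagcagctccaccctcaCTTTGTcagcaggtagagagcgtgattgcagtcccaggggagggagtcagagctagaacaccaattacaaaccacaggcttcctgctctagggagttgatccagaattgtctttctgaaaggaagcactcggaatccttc
RNF43, second start, chr17:58402672-58402971, minus strand: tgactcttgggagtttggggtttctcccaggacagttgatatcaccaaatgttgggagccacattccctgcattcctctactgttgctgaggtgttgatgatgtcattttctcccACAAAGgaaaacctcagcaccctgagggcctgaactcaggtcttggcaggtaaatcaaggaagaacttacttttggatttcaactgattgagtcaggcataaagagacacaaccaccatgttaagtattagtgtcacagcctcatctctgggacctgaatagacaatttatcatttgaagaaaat

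The sequences differed in base composition. The CTNNB1 promoter was 74.0% G+C with 39 CG dinucleotides, the APC promoters 56.3% with 14 and 68.0% with 23, and the RNF43 promoters 54.3% with 5 and 43.7% with 0. Over all 35116 RefSeq promoters the medians were 58.7% G+C and 14 CG dinucleotides. CTTTGA occurred in none of the 5 sequences and CTTTGT once in each RNF43 promoter, the second time as ACAAAG on the opposite strand. These 6-base motifs are frequent, in 12.9% and 16.1% of all promoters, and a match describes letters only.

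H3K27ac was listed at 7 of the 9 loci in each condition, and at the same 7 in both. The ENO1-IT1 siRNA list held 50 summits at these loci and the control siRNA list 55. LGR5 and ASCL2 had none in either list. RNF43 alone held 23 of the 50 after ENO1-IT1 siRNA and 27 of the 55 after control siRNA, followed by ZNRF3 with 11 and 9. KAT7 was listed differently. The ENO1-IT1 siRNA KAT7 list held 11 summits at 6 of the loci, and the control siRNA KAT7 list 37 at all 9. Input DNA had no summit at any of them.

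**Figure D1:**
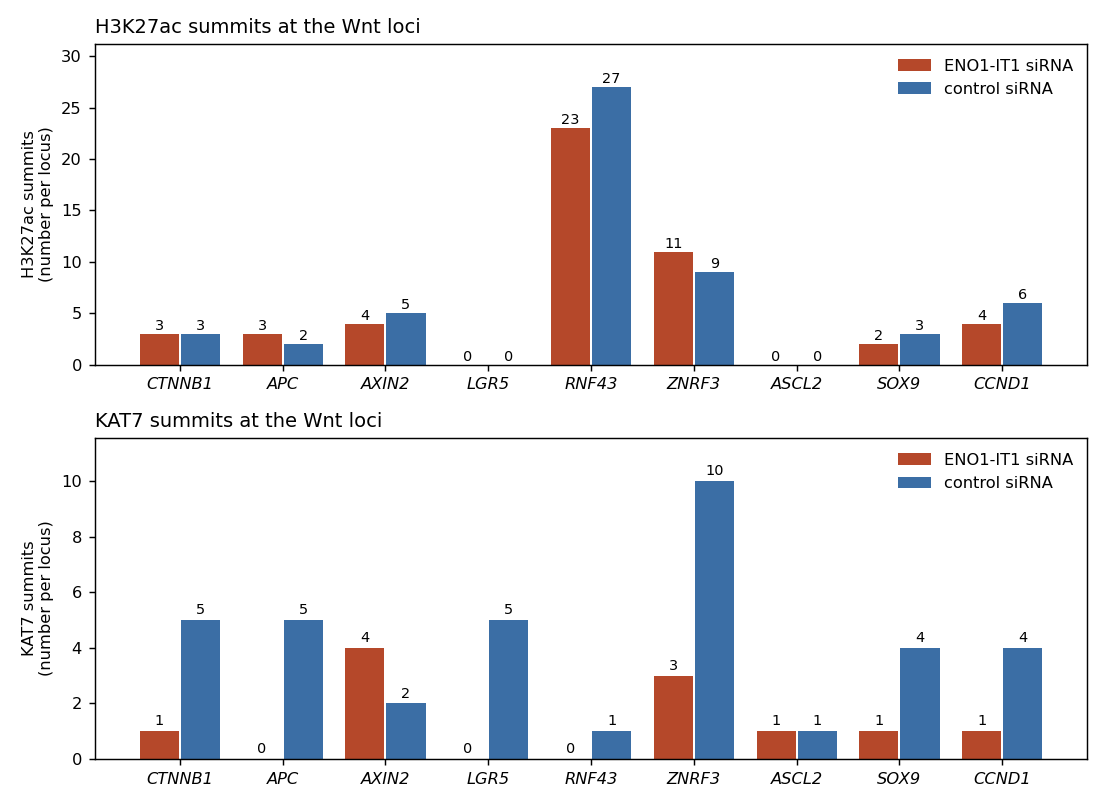
Number of H3K27ac summits (upper) and KAT7 summits (lower) within 20 kb of each gene, with ENO1-IT1 siRNA bars left of control siRNA bars and the count printed over each bar. RNF43 held 23 and 27 H3K27ac summits, while LGR5 and ASCL2 held 0 in both conditions.

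The windows covered 1.01 Mb, or 0.0337% of the 3010 Mb between the outermost summits of the chromosomes. They held 0.157% of the H3K27ac summits after ENO1-IT1 siRNA and 0.187% after control siRNA, a density 4.67 and 5.55 times that of the whole list. With RNF43 left out the densities were 2.81 and 3.16 times the whole list. KAT7 was at 1.33 times its genome-wide density after ENO1-IT1 siRNA and at 0.898 times after control siRNA. The control siRNA KAT7 list is long, with 122439 summits against 24611 after ENO1-IT1 siRNA, and the ratio of KAT7 summits at the loci has to be read against that.

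At a distance of 500 bp, most H3K27ac positions at these genes were listed in both conditions. The share was near that of the whole list for ENO1-IT1 siRNA summits. For control siRNA summits it was lower than in the whole list, whose share the interval included. A summit was called listed in both when the other list had a summit at most 500 bp away. After ENO1-IT1 siRNA, 32 of 50 summits, 64.0% (exact Clopper-Pearson 95% interval 49.2 to 77.1%, counting error only), had a control siRNA counterpart, beside 64.3% of the whole list. Of the control siRNA summits, 34 of 55 or 61.8% (47.7 to 74.6%) had an ENO1-IT1 siRNA counterpart, beside 71.9% of the whole list. A score of 10 or more was reached by 19 of the 50 ENO1-IT1 siRNA summits, beside 40.1% of that list, and by 20 of the 55 control siRNA summits, beside 31.2%. Among these stronger summits, 16 of 19 after ENO1-IT1 siRNA had a counterpart, beside 88.0% of such summits in the list, and 14 of 20 after control siRNA, beside 81.1%. The score is the -log10 of a p or q value and grows with depth, so it ranks summits within a list, and scores of different lists stand side by side below without a common scale.

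**Figure D2:**
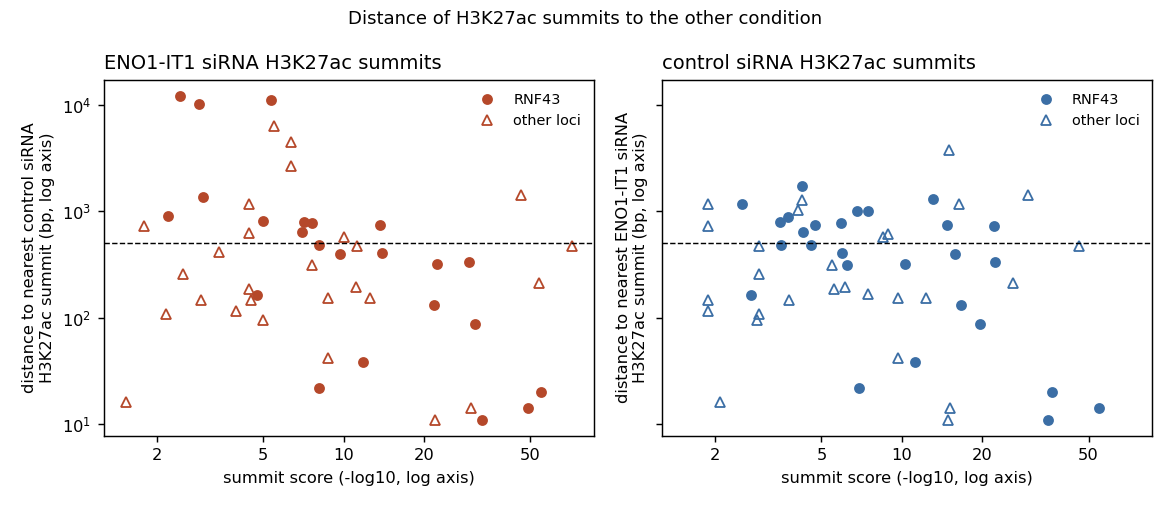
Distance from each H3K27ac summit at the Wnt loci to the nearest H3K27ac summit of the other condition, against the summit's own score, both on log axes, with ENO1-IT1 siRNA summits on the left and control siRNA summits on the right. Filled circles are RNF43 summits, open triangles the other loci, and the dashed line is 500 bp. Of the ENO1-IT1 siRNA summits 18 lie above the line, and of the control siRNA summits 21.

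Within 2000 bp, 44 of the 50 ENO1-IT1 siRNA summits had a counterpart, beside 81.1% of the whole list, and 54 of the 55 control siRNA summits, beside 93.5%. H3K27ac summits are denser at these loci than in the whole lists, and how far that density sets these shares was not tested. The median distance at RNF43 was 401 bp from ENO1-IT1 siRNA summits and 481 bp from control siRNA summits. At the other loci it was 211 bp and 202 bp. Of the 12 ENO1-IT1 siRNA summits that scored at least 20, 1 had no control siRNA summit within 500 bp, at CCND1. Of the 8 such control siRNA summits, 2 had no ENO1-IT1 siRNA summit within 500 bp, at CCND1 and RNF43. The whole-list shares without a counterpart were not counted at this score, so whether these numbers are unusual cannot be said. A score of at least 20 was reached by 24.0% of the ENO1-IT1 siRNA summits at the loci, beside 17.3% of that list, and by 14.5% of the control siRNA summits, beside 10.1%.

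The core of the pathway showed acetylation near the 5′ ends of its genes, strong at AXIN2, moderate at CTNNB1 and weak at APC. CTNNB1 (chromosome 3, 41236000 to 41302000) encodes β-catenin, the effector of the pathway. Its highest H3K27ac summit lay at 41241203 with a score of 29.9 after ENO1-IT1 siRNA and at 41241217 with a score of 15.2 after control siRNA, 14 bp apart. They ranked in the top 7.83% of the ENO1-IT1 siRNA list and the top 17.3% of the control siRNA list. The control siRNA list had another summit at 41240588 (score 8.85), 615 bp from the ENO1-IT1 siRNA one. These summits sit 4.6 to 5.2 kb inside the span used, which at 66 kb is longer than the 40939 bp RefSeq gives for the gene. Weak summits lay beyond the 3′ end, at 41309325 and 41309830 after ENO1-IT1 siRNA (scores 4.97 and 3.42) and at 41309419 after control siRNA (score 2.86). KAT7 was listed once after ENO1-IT1 siRNA, at 41290999 with a score of 5.72, and 5 times after control siRNA with scores of 2.68 to 4.28. None of these 6 lay within 500 bp of H3K27ac, and no KAT7 position recurred between the conditions.

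APC (chromosome 5, 112043000 to 112182000) encodes the scaffold that is lost in most colorectal cancers. H3K27ac within the gene was limited to its 5′ end, at 112043419 with a score of 1.53 after ENO1-IT1 siRNA and at 112043435 with a score of 2.08 after control siRNA. The positions were 16 bp apart. The first is among the weakest calls of its list, since 99.9% of ENO1-IT1 siRNA summits scored as high or higher, and for the other the share was 95.8%. No further summit of either list lay in the remaining span, although RefSeq gives a second transcript start inside the gene. Beyond the 3′ end, where RefSeq places SRP19 as the neighbour, H3K27ac was listed at 112196677 and 112197477 after ENO1-IT1 siRNA (score 4.40 each) and at 112197293 after control siRNA (score 5.59). KAT7 was absent from the ENO1-IT1 siRNA list over the whole window, with the nearest summit 262 kb from the gene. Of consecutive tiles as wide as its 179 kb window, 29.9% held no ENO1-IT1 siRNA KAT7 summit, and the median tile held 7 control siRNA KAT7 summits. The control siRNA list had 5 KAT7 summits in the gene body, with scores of 1.31 to 4.28, the nearest of them 38479 bp from H3K27ac.

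AXIN2 (chromosome 17, 63524000 to 63558000, minus strand) encodes a scaffold of the destruction complex and is itself induced by Wnt signalling as a feedback inhibitor. It had the highest H3K27ac score of the 9 loci after ENO1-IT1 siRNA, 71.6 at 63556833, while after control siRNA its summit at 63556365 scored 46.0, second to the 54.9 of RNF43. They ranked in the top 0.713% and the top 1.23% of their lists and lay 1.2 and 1.6 kb inside the 5′ end, 468 bp apart. Downstream of this summit in the gene, the ENO1-IT1 siRNA list had 63552090 with a score of 4.40 and the control siRNA list 63553265 with a score of 16.3, 1175 bp apart. Upstream, 63559879 (score 7.59) after ENO1-IT1 siRNA and 63560189 (score 5.49) after control siRNA lay 310 bp from each other. AXIN2 was the only locus with more KAT7 summits after ENO1-IT1 siRNA than after control siRNA, 4 against 2. A KAT7 position was common to both lists, at 63554208 with a score of 11.0 after ENO1-IT1 siRNA and at 63554198 with a score of 2.68 after control siRNA, 10 bp apart. It lay 2118 bp from the nearest H3K27ac summit after ENO1-IT1 siRNA and 933 bp after control siRNA. A further ENO1-IT1 siRNA KAT7 summit, at 63556962 with a score of 5.83, lay 129 bp from the strong H3K27ac summit, and no control siRNA KAT7 summit was nearer than 2764 bp. In the control siRNA lists KAT7 met H3K27ac instead beyond the 3′ end, at 63511947 (score 3.89), 464 bp from an H3K27ac summit that scored 3.79.

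**Figure D3:**
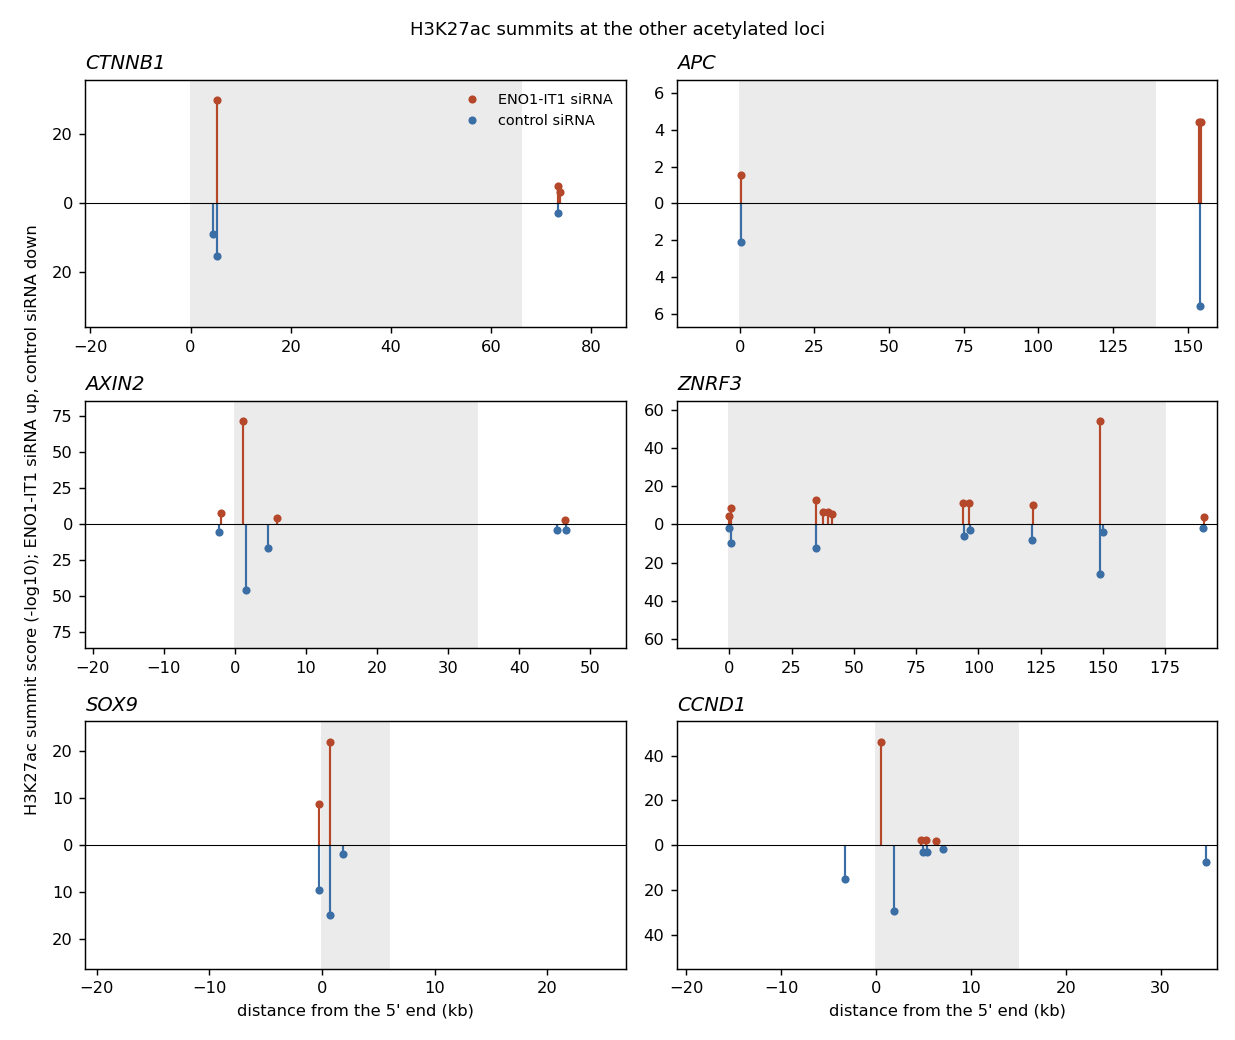
H3K27ac summits at 6 loci by distance from the 5′ end of the gene in kb, in the direction of transcription, with the gene span in grey. ENO1-IT1 siRNA scores point up and control siRNA scores point down, as -log10 values that are not on a common scale. At AXIN2 the highest summits, 71.6 after ENO1-IT1 siRNA and 46.0 after control siRNA, stand 1.2 and 1.6 kb from the 5′ end, whereas at ZNRF3 they stand 148.8 and 149.0 kb from it.

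At receptor level the 3 loci were unlike each other. RNF43 and ZNRF3 are membrane E3 ubiquitin ligases that remove Frizzled receptors, and LGR5, a receptor for R-spondins and a marker of intestinal stem cells, keeps these ligases in check. RNF43 (chromosome 17, 56429000 to 56495000, minus strand) was densely acetylated in both conditions. Of 28387 consecutive tiles as wide as its 106 kb window, 22 or 0.0775% held at least its 23 ENO1-IT1 siRNA summits, and 13 or 0.0458% at least its 27 control siRNA summits. Tiles with no H3K27ac summit made up 61.2% for ENO1-IT1 siRNA and 65.1% for control siRNA.

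The RNF43 summits fell mostly into 3 stretches, at the 5′ end, in the gene body and at the 3′ end. The 5′ end had a summit at 56494674 with a score of 54.8 after ENO1-IT1 siRNA and at 56494694 with a score of 36.5 after control siRNA, 20 bp apart and 0.3 kb inside the gene. Just upstream were 56495348 (score 22.3) after ENO1-IT1 siRNA and 56495664 (score 10.3) and 56496089 (score 4.72) after control siRNA. The gene body, from 5 to 40 kb downstream of the 5′ end, held 15 ENO1-IT1 siRNA summits over 28.8 kb and 20 control siRNA summits over 28.4 kb. Their median scores were 8.09 and 6.84. The highest of them lay at 56472465 after ENO1-IT1 siRNA (score 48.9) and at 56472451 after control siRNA (score 54.9), 14 bp apart, and the second highest at 56468668 (score 32.9) and 56468679 (score 35.3), 11 bp apart. Between them the control siRNA list had 56471736 (score 22.1), whose nearest ENO1-IT1 siRNA summit was the strong one 729 bp away. Of the block, 9 of 15 ENO1-IT1 siRNA and 11 of 20 control siRNA summits had a counterpart within 500 bp. The shares of the whole lists were 64.3% and 71.9%. Summits in the block are close together, with median gaps of 1550 bp after ENO1-IT1 siRNA and 1400 bp after control siRNA, so wider distances say little there. The limits of this block were chosen after its summits had been seen. RefSeq gives RNF43, like APC, a second transcript start inside the gene, and the summits of the block were not placed against it.

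The 3′ end of RNF43, where RefSeq places SUPT4H1 as the neighbour, had a summit at 56429998 with a score of 29.4 after ENO1-IT1 siRNA and at 56430328 with a score of 22.4 after control siRNA, 330 bp apart. Whether these summits belong to RNF43 or to SUPT4H1 cannot be told apart. Summits at 56442221 (score 2.88) and 56443122 (score 5.36), in an interval empty in the control siRNA list, were listed after ENO1-IT1 siRNA, more than 10 kb from any control siRNA H3K27ac summit. Both are weak. Upstream, a summit lay at 56505818 after ENO1-IT1 siRNA (score 11.8) and at 56505856 after control siRNA (score 11.2).

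**Figure D4:**
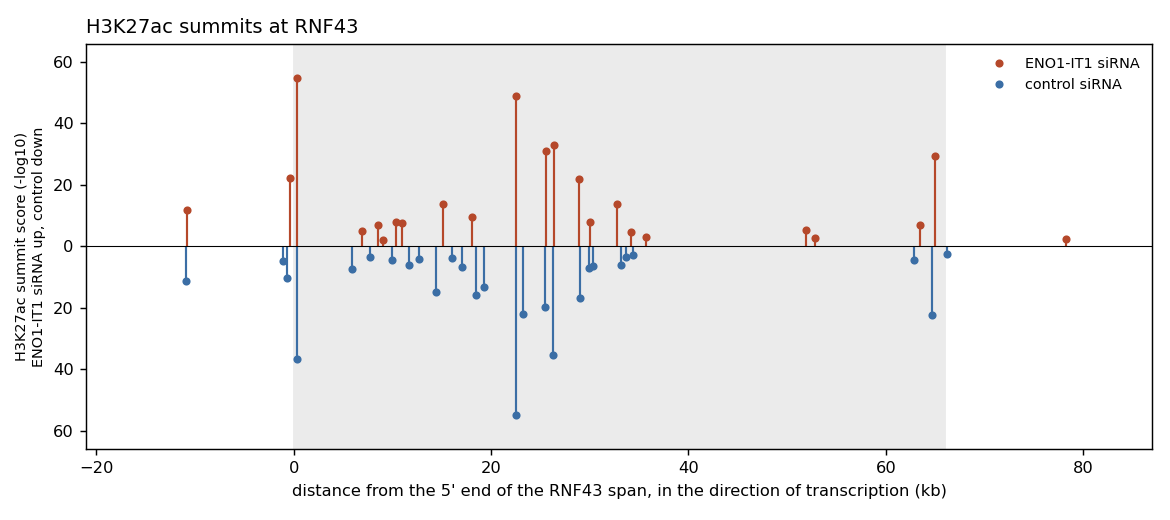
H3K27ac summits at RNF43 by distance from the 5′ end of the gene in kb, in the direction of transcription, with the gene span in grey. ENO1-IT1 siRNA scores point up and control siRNA scores point down, as -log10 values that are not on a common scale. In both conditions the tall summits stand at the 5′ end, near 22.5 kb, near 26.3 kb and at the 3′ end.

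RNF43 had few KAT7 summits. The ENO1-IT1 siRNA KAT7 list had no summit in the window, the nearest lying 77.3 kb from the gene. The control siRNA KAT7 list had 1, at 56502952 with a score of 4.88, which was 8.0 kb upstream of the 5′ end and 2904 bp from H3K27ac. Of tiles of this width, 47.1% held no ENO1-IT1 siRNA KAT7 summit, so this absence is common. For control siRNA KAT7, 6.76% of tiles held none, 93.2% held at least 1 as RNF43 did, and the median tile held 4. The share of tiles with exactly 1 was not counted.

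ZNRF3 (chromosome 22, 29279000 to 29454000) was acetylated at its 5′ end and at several places inside the gene. Nearest the 5′ end were weak summits just upstream, at 29278988 (score 4.50) after ENO1-IT1 siRNA and 29278842 (score 1.88) after control siRNA. They lay 12 and 158 bp from it. Just inside the gene, at 0.8 and 0.7 kb, 29279822 scored 8.71 after ENO1-IT1 siRNA and 29279669 scored 9.68 after control siRNA, 153 bp apart. The strongest summit lay far downstream, 148.8 kb from the 5′ end at 29427817 with a score of 53.9 after ENO1-IT1 siRNA, and at 29428028 with a score of 26.1 after control siRNA, 211 bp away. They ranked in the top 1.49% and the top 5.50% of their lists. RefSeq gives ZNRF3-AS1, C22orf31 and KREMEN1 within 20 kb of the gene. Whether summits in this window belong to ZNRF3 or to a neighbour cannot be told apart. Summits 34.9 kb from the 5′ end, at 29313873 after ENO1-IT1 siRNA (score 12.5) and at 29314026 after control siRNA (score 12.3), were followed after ENO1-IT1 siRNA by 29316697, 29318504 and 29320269, with scores of 6.33, 6.33 and 5.46. The control siRNA list had no H3K27ac summit nearer to these 3 than 29314026, from 2671 to 6243 bp away. The summits at 29372971 and 29375289 after ENO1-IT1 siRNA scored 11.1 and 11.2, and their control siRNA counterparts at 29373164 and 29375761 scored 6.15 and 2.93.

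ZNRF3 had 3 KAT7 summits after ENO1-IT1 siRNA and 10 after control siRNA. The highest of the control siRNA list at the 9 loci was among them, at 29310499 with a score of 9.82, in the top 3.6% of that list and 19268 bp from the nearest ENO1-IT1 siRNA KAT7 summit. It was the only locus where KAT7 lay on H3K27ac at the 5′ end in both conditions. After ENO1-IT1 siRNA, KAT7 at 29279817 (score 4.09) lay 5 bp from H3K27ac, and after control siRNA, KAT7 at 29279654 (score 2.68) lay 15 bp from it. The KAT7 positions themselves were 163 bp apart. A KAT7 summit 85.7 kb into the gene was at the identical base, 29364737, in both lists, with a score of 5.53 after ENO1-IT1 siRNA and 2.68 after control siRNA, and had no H3K27ac within 8 kb.

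LGR5 (chromosome 12, 71833000 to 71981000) had no H3K27ac summit in its window in either condition. The nearest lay 77.3 kb from the gene after ENO1-IT1 siRNA, at 72058321 with a score of 16.2, and 76.4 kb after control siRNA, at 72057432 with a score of 7.49. Such gaps are common, since 48.8% of ENO1-IT1 siRNA tiles and 53.2% of control siRNA tiles of the same 188 kb width held no H3K27ac summit. KAT7 was not listed after ENO1-IT1 siRNA, as in 28.6% of tiles of this width. It was listed 5 times after control siRNA, where the median tile held 8. The strongest of the 5 lay at 71839350 with a score of 7.87, in the top 5.95% of that list and 6.3 kb inside the gene. Another, at 71833606 near the 5′ end, scored 1.31, among the lowest values of that list.

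ASCL2, SOX9 and CCND1, the remaining target genes, code for transcription factors and a cell cycle regulator. ASCL2, which acts in intestinal stem cells, was like LGR5 in having no H3K27ac summit in its window (chromosome 11, 2289000 to 2293000, minus strand). The nearest was 70.9 kb from the gene after ENO1-IT1 siRNA, at 2218073 with a score of 7.50, and 71.0 kb after control siRNA, at 2218041 with a score of 9.68. In tiles of its 44 kb width, 77.4% had no ENO1-IT1 siRNA summit and 80.2% no control siRNA summit. After ENO1-IT1 siRNA, KAT7 was listed 16.0 kb upstream of the 5′ end, at 2308981 with a score of 17.0, the highest of that list at the 9 loci and in the top 21.4% of the whole list. The control siRNA KAT7 list had no summit near it, and its nearest, at 2290242 with a score of 1.31, was 18739 bp away. The nearest ENO1-IT1 siRNA H3K27ac summit was 74625 bp away.

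SOX9 (chromosome 17, 70117000 to 70123000), a transcription factor of the crypt base, had the same pair of H3K27ac summits around its 5′ end in both conditions. After ENO1-IT1 siRNA they were at 70116740 and 70117732 with scores of 8.71 and 22.0, and after control siRNA at 70116782 and 70117721 with scores of 9.68 and 14.9. The positions agreed within 42 and 11 bp. A further weak summit was listed after control siRNA at 70118899 (score 1.88), 14 bp from a control siRNA KAT7 summit at 70118913 (score 2.37). The ENO1-IT1 siRNA KAT7 list had no summit at the gene itself. Its summit at 70142925 (score 4.98), close to the edge of the window, was 97 bp from a control siRNA summit at 70142828 (score 1.31).

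CCND1 (chromosome 11, 69455000 to 69470000) encodes cyclin D1, which drives entry into S phase. Acetylation at its 5′ end was listed at different positions in the conditions, at 69455520 with a score of 46.1 after ENO1-IT1 siRNA and at 69456921 with a score of 29.6 after control siRNA, 1401 bp apart. They ranked in the top 2.39% and the top 3.92% of their lists, so this stretch was strongly acetylated in both libraries although no pair was counted there at 500 bp. The control siRNA list also had 69451764 (score 15), 3.2 kb upstream and 3756 bp from any ENO1-IT1 siRNA summit. At the far edge of the window the control siRNA summit 69489843 (score 7.49) lay 19843 bp from the span and counted, while its ENO1-IT1 siRNA counterpart at 69490011 (score 9.93) lay 20011 bp from it and did not, nor did a control siRNA summit at 69490447 (score 12.6). The other ENO1-IT1 siRNA summits at CCND1 scored 1.78 to 2.51. KAT7 recurred 2.5 kb inside the gene, at 69457538 with a score of 9.58 after ENO1-IT1 siRNA and at 69457527 with a score of 4.28 after control siRNA, 11 bp apart. They ranked in the top 42.0% and the top 22.8% of their lists. These lay 2018 bp from the nearest H3K27ac summit after ENO1-IT1 siRNA and 606 bp from it after control siRNA. The remaining control siRNA KAT7 summits were at 69443770 (score 6.02), 69446259 (score 5.77) and 69457768 (score 2.68).

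**Figure D5:**
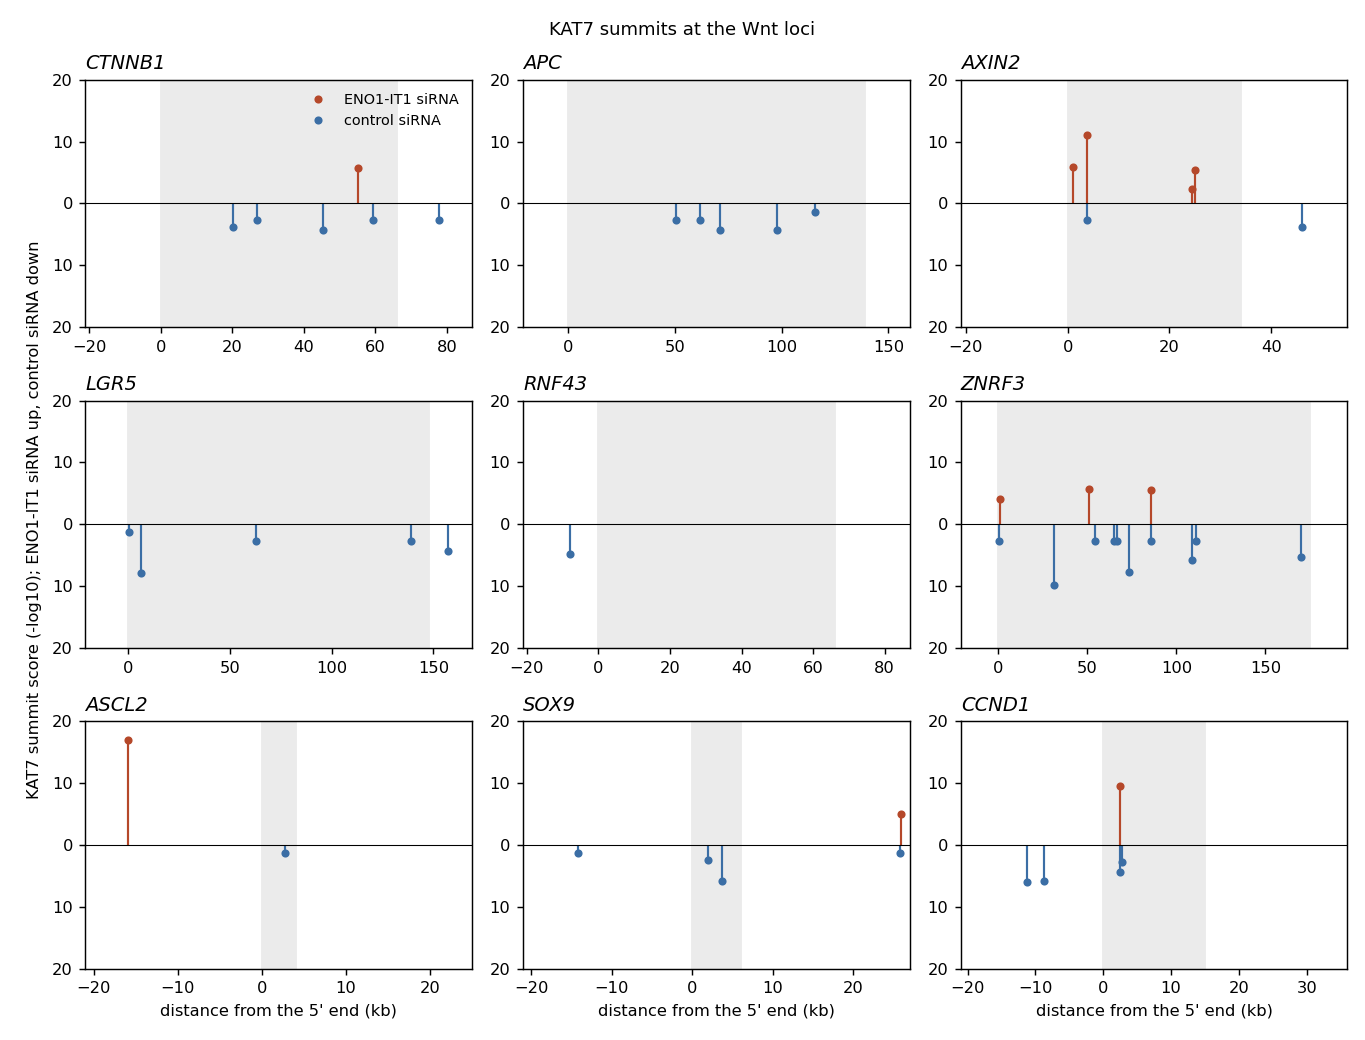
KAT7 summits at the 9 loci by distance from the 5′ end of the gene in kb, in the direction of transcription, with the gene span in grey. ENO1-IT1 siRNA scores point up and control siRNA scores point down, as -log10 values that are not on a common scale. The control siRNA summits all score below 10, and the ENO1-IT1 siRNA summits that pass 10 are at ASCL2 (17.0) and AXIN2 (11.0).

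Taken over the loci, KAT7 summits lay at 1.33 times the whole-list density after ENO1-IT1 siRNA and at 0.898 times after control siRNA. Most scored under 10, as in the whole lists. After ENO1-IT1 siRNA the 11 summits scored 2.33 to 17.0 with a median of 5.72, beside a median of 7.67 for that list, and 2 of 11 reached a score of 10, beside 37.4% of the list. After control siRNA the 37 summits scored 1.31 to 9.82 with a median of 2.68, the same as for the whole list. A score of 10 was reached by 0 of 37 (the exact 95% interval reaches 9.49%), beside 2.75% of the list. A score of 1.31 or 2.68, the values most frequent in the control siRNA KAT7 list, was held by 20 of the 37, beside 64.2% of that list. At a score of at least 5 the numbers were equal, 8 of 11 after ENO1-IT1 siRNA, beside 80.9% of the list, and 8 of 37 after control siRNA, beside 13.2%. With a minimum of 3, 10 summits were left after ENO1-IT1 siRNA and 16 after control siRNA, and the whole-list shares at this minimum were not counted. The same minimum marks different ranks in the 2 lists, so these counts can show neither a change in enrichment nor its absence.

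KAT7 positions recurred between the conditions at 4 loci. Of the ENO1-IT1 siRNA KAT7 summits 5 of 11, 45.5% (16.7 to 76.6%), had a control siRNA KAT7 summit within 500 bp, beside 32.2% of the whole list. They were those at AXIN2, ZNRF3 (2 positions), SOX9 and CCND1. Of the control siRNA KAT7 summits 6 of 37, 16.2% (6.19 to 32.0%), had an ENO1-IT1 siRNA summit, beside 6.62% of that list. Both intervals are wide at these numbers and include the share of the whole list.

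KAT7 and H3K27ac coincided at few places. Of the KAT7 summits, 2 of 11 after ENO1-IT1 siRNA, 18.2% (2.28 to 51.8%), and 3 of 37 after control siRNA, 8.11% (1.70 to 21.9%), had an H3K27ac summit of their condition within 500 bp, beside 19.0% and 3.67% of the whole lists. Seen from H3K27ac, 2 of 50 summits after ENO1-IT1 siRNA, 4.0% (0.488 to 13.7%), and 3 of 55 after control siRNA, 5.45% (1.14 to 15.1%), had KAT7, beside 14.3% and 14.8% of the whole lists. The summits of RNF43, with no KAT7 on any of them, make up 23 and 27 of these 50 and 55, and neighbouring summits of a locus are not independent.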

How the data were processed

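Bowtie alignment to hg19 and peak calling by MACS2 are named in the submitters' processing notes. Tool versions, options and the control for calling are not given. Peak names in the deposited lists, 1 per sample, show that duplicates were removed. The score that the authors deposited with each summit is in MACS2's format, a -log10 of the p-value or of the q-value, without a statement of which. Lists hold no read counts, so the depth of each sample is unknown.

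Summits within 20 kb of the 9 gene spans were taken from each list with Python 3.11.15, numpy 2.4.6 and pandas 2.3.3, intervals came from SciPy 1.17.1 and plots from matplotlib 3.10.9. Positions count from 1. A summit was shared at 500 bp or less, and near input at 1000 bp or less. Intervals are exact Clopper-Pearson at 95% and cover counting error only. The search for nearest summits was tested on simulated lists. Strands of the genes came from general knowledge, and gene names and neighbours from RefSeq for GRCh38.p14. Other Wnt pathway genes were not located, since no hg19 annotation was used. At each locus the summits named are those highest in H3K27ac, nearest the 5′ end, KAT7 summits on H3K27ac or scoring at least 10, and H3K27ac summits scoring at least 20 in 1 condition. Others were added after their values were seen. The members and lists were chosen with earlier results of these data known. With 1 library per group no test was run.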

Additional observations from a re-analysis of the deposited data

How the results depend on the processing

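With 1 library per group no replicate could be left out, and no test was run whose call could be lost. No paired analysis was possible because each group holds 1 library and the results come from no test. Of 85 values under other settings, 62 stayed within 1.5 times the count or within the interval of the share. The distance that counts as shared moved the H3K27ac shares most. From the ENO1-IT1 siRNA list the share listed in both conditions was 22.0% at 100 bp, 44.0% at 250 bp, 82.0% at 1000 bp and 88.0% at 2000 bp, and from the control siRNA list it was 20%, 41.8%, 80.0% and 98.2%. Score minimums reduced the counts by construction. At a minimum of 10 the lists held 19 (ENO1-IT1 siRNA H3K27ac), 20 (control siRNA H3K27ac), 2 (ENO1-IT1 siRNA KAT7) and 0 (control siRNA KAT7) summits, and at 20 they held 12, 8, 0 and 0, so the order of the H3K27ac counts turned at 20. With the minimum of 20 on both lists 75.0% of control siRNA H3K27ac summits were shared, 6 of 8. The whole-list share at this setting was not counted. With the minimum of 10 the share of ENO1-IT1 siRNA KAT7 summits was 0% with control siRNA KAT7 and 0% with H3K27ac, over 2 summits. A flank of 50 kb gave 17 KAT7 summits after ENO1-IT1 siRNA and 63 after control siRNA. Without RNF43, an alternative chosen after seeing the data, 27 H3K27ac summits were left after ENO1-IT1 siRNA and 28 after control siRNA. Shares of KAT7 at a minimum of 20, and of control siRNA KAT7 at 10, have no value because no summit was left. A flank of 10 kb moved no count or share beyond these limits. Merging of summits, run for counts, lowered control siRNA H3K27ac from 55 to 52 and control siRNA KAT7 from 37 to 36. Both stayed within the limits, and the ENO1-IT1 siRNA counts did not change. Removal of summits near input could change nothing here, since the nearest input summit was 46823 bp from any summit at the loci.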
